A study of Mus musculus with 4 samples.

Results

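Kupffer cells are the resident macrophages of the liver, and 10 of their marker genes (Marco, Vsig4, Clec4f, Timd4, Cd5l, C1qa, C1qb, C1qc, Adgre1 and Csf1r) were followed across regenerating and quiescent mouse liver. The genes were chosen by name, with earlier results of these data known, and a gene entered if it had a probe set carrying its symbol alone. All 10 did, of 19505 genes so named on the array, and each had 1 such probe set. RNA was measured on 4 microarrays, 1 for each of 4 groups: Mcu knockdown liver 30 h after partial hepatectomy, knockdown liver at 0 h, control liver at 30 h, and control liver at 0 h. The strain label was C57BL6J for all arrays, and the treatment protocol describes males with floxed Mcu alleles (MCUloxp/loxp), injected through the tail vein at an age of 10 to 12 weeks. Knockdown mice received AAV8-TBG-Cre and their control littermates AAV8-TBG-Null, a vector of the same serotype and promoter with no Cre. The TBG promoter is active in hepatocytes, so the knockdown was directed at those cells and not at macrophages. Surgery followed 5 weeks later and removed 70% of the liver. Animals were pooled by 4 per genotype according to the series text, and an array therefore counts as 1 pooled sample. With no replicates, no value below carries an error, no test was run, and a difference is one between arrays. No sham-operated group was among the samples, so the operation itself, the loss of liver and the hour of sampling cannot be told apart at 30 h.

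Kupffer cells line the sinusoids, where they take up microbes, debris and worn-out red cells from portal blood, and after hepatectomy they are a known source of the cytokines that ready hepatocytes for division. They depend on signals through the CSF1 receptor (Csf1r) and, in mice, are recognised by F4/80 (Adgre1) and by the lectin CLEC4F. Several of the markers are uptake receptors: MARCO binds bacteria and particles, VSIG4 binds complement C3 fragments on pathogens, and TIM-4 (Timd4) binds phosphatidylserine on dying cells. Others are secreted: the C1qa, C1qb and C1qc chains assemble into C1q, which starts the classical complement pathway, and CD5L (also called AIM) is a scavenger protein of blood plasma.

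The Mcu transcript was lower on both arrays labelled knockdown, with 2.63 in knockdown and 4.30 in control liver at 30 h, and 2.83 in knockdown and 4.77 in control liver at 0 h (log2 expression). The labels disagree in places. The genotype field does not match the treatment protocol: it reads Wild type for the control arrays, which the protocol calls littermates of the floxed mice, and for the knockdown arrays it does not give the allele of the protocol. The Mcu values above are the check of the groups used here. Also, free-text descriptions speak of ethanol feeding, which no other label does, and for the knockdown 30 h array that text has 1 h, whereas both its title and its time field have 30 h. The control response and the genotype difference at 0 h do not use that array. Pairs of arrays correlated with r between 0.953 and 0.974 across probe sets. Each of the 10 markers had a 4-array mean no lower than the median gene level of 3.83, with Adgre1 (3.92) the closest to it. Of all 19505 genes, 9759 had such a mean, so it does not show which cells the RNA came from. Liver was measured in bulk, so fewer Kupffer cells and less RNA per Kupffer cell cannot be told apart. Levels were not compared between genes, since each probe set has its own brightness. A gene is counted below as higher or lower by size when it differed by at least 1.5-fold (0.585 on the log2 scale), and the share of all 19505 genes past the same size is given beside each count.

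The sequences upstream of the markers with the most marked values are shown because the C1q chains moved together and Marco and Cd5l differed most. RefSeq (GRCm38.p6) promoter entries were used for 7 of the 10 markers, and C1qa, Adgre1 and Csf1r are named only. Any entry of Csf1r was left out by the search itself, while the entries of all genes had no such exclusion. The windows are the 250 bases before the annotated start, and 2 short motifs are in capitals on either strand. GAGGAA is a core bound by PU.1, the factor that specifies macrophages, and TGCTGA is a core bound by MAF proteins.
Marco, chr1:120505025-120505274, minus strand: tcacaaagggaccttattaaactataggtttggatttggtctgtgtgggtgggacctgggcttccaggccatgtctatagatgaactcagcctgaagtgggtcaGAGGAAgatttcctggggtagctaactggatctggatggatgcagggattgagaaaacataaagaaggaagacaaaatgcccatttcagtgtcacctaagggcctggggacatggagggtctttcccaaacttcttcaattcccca
Vsig4, chrX:96293439-96293688, minus strand: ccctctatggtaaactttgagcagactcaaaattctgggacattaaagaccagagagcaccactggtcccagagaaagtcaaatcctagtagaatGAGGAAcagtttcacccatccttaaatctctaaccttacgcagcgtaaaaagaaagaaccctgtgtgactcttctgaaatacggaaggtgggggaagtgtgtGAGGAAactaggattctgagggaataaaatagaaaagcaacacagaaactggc
Cd5l, chr3:87357631-87357880, plus strand: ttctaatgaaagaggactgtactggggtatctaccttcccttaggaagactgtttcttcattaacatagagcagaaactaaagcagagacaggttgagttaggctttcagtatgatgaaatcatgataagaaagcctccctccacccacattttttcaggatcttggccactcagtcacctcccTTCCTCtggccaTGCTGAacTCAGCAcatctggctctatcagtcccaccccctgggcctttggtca
C1qb, chr4:136886201-136886450, minus strand: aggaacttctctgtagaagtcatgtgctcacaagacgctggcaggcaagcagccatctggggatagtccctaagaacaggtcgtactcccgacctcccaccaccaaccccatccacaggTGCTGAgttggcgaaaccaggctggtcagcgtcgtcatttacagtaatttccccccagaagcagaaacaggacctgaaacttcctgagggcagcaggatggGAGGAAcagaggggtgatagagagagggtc
C1qc, chr4:136892915-136893164, minus strand: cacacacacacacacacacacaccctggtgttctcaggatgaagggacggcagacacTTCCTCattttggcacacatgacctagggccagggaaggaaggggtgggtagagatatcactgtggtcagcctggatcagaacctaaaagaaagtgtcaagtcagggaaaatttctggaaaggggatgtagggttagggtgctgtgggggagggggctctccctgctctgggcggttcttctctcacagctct
GAGGAA occurred in 5 of the 7 marker windows (Marco, Vsig4, Cd5l, C1qb and C1qc), against 23.3% of 32851 windows of the same length. TGCTGA occurred in 4 of 7 (Cd5l, C1qb, Clec4f and Timd4), against 16.1%. No match to these overlapped another match of either motif. In Cd5l a pair of TGCTGA cores face each other, as TGCTGANNTCAGCA, an arrangement looked for after the sequence was seen and present in 2 of the 32851 windows. The AP-1 motif TGANTCA (6.75% of windows) and the STAT motif TTCNNNGAA (7.02%) occurred in 0 of 7. These are matches of letters, not sites of binding.

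Marco had the largest difference of the markers. It read 5.63 in knockdown liver at 30 h and 4.04 at 0 h, and in the control it read 6.23 at 30 h and 3.61 at 0 h (log2 expression). Both 30 h arrays were thus above both 0 h arrays. Its level was 3.01-fold higher at 30 h in the knockdown (log2 difference 1.59) and 6.15-fold higher in the control (2.62), and 0.55% of all genes had a higher response in the knockdown and 0.26% in the control. The control fold starts from 3.61, below the median gene level of 3.83, and no detection call was used.

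Cd5l followed. In knockdown liver it read 7.42 (30 h) and 6.61 (0 h), and in control liver 7.55 (30 h) and 6.10 (0 h). Again both 30 h arrays lay above both 0 h arrays, by 1.75-fold in the knockdown (0.81) and 2.73-fold in the control (1.45). Vsig4 split the genotypes. It read 5.34 at 30 h and 5.70 at 0 h in knockdown liver, and 5.97 at 30 h and 4.85 at 0 h in control liver, so the highest and the lowest value were both from control liver. Its response was -0.36 in the knockdown and 1.12 (2.17-fold higher) in the control.

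**Figure D1:**
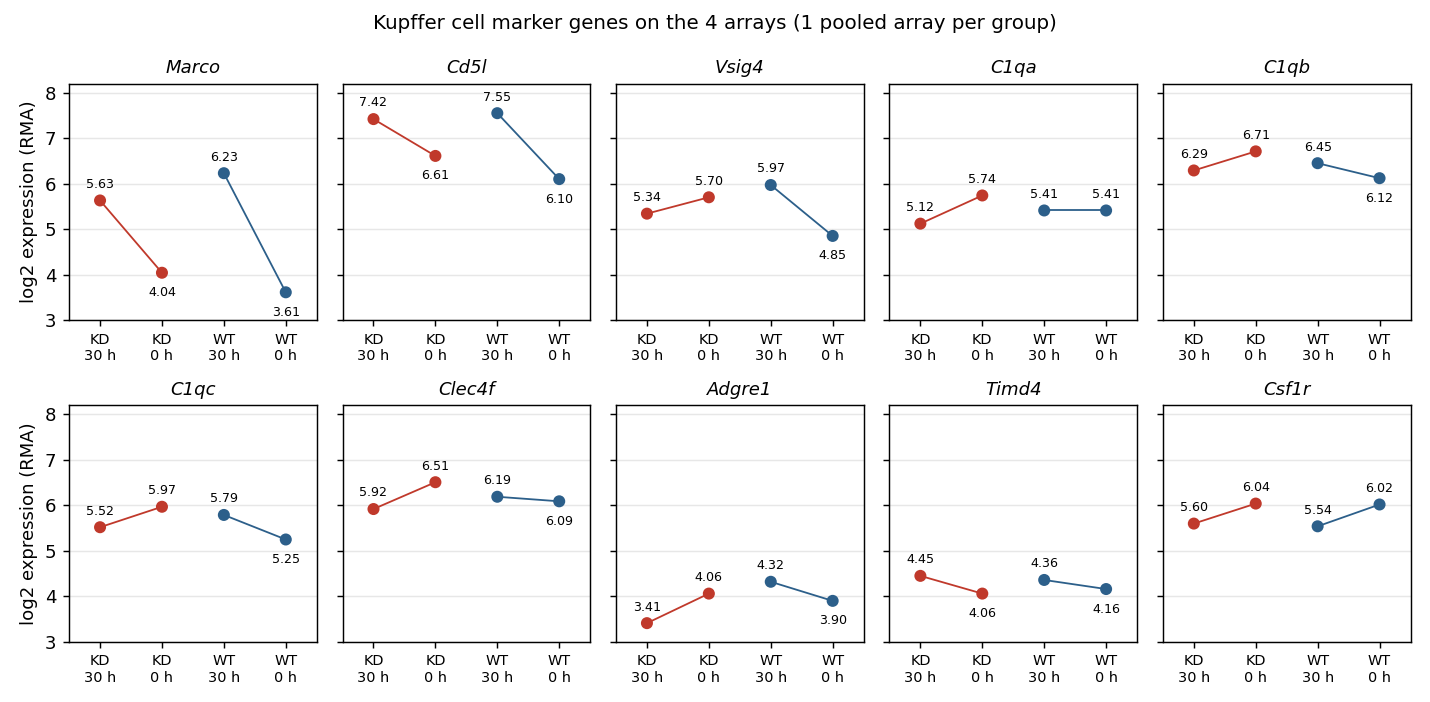
Log2 expression (vertical axis) of the 10 Kupffer cell markers on the 4 arrays; each point is 1 pooled array, red for knockdown (KD) and blue for control (WT) liver, and a line joins 30 h to 0 h within a genotype. Marco and Cd5l are higher at 30 h in both genotypes, while Vsig4, C1qb, C1qc, Clec4f and Adgre1 are lower at 30 h in KD and higher at 30 h in WT.

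The C1q chains, whose products assemble into 1 protein, differed in the same direction in the knockdown. C1qa read 5.12 at 30 h and 5.74 at 0 h in knockdown liver, and 5.41 at both times in control liver. C1qb read 6.29 at 30 h and 6.71 at 0 h in knockdown liver, and 6.45 at 30 h and 6.12 at 0 h in control liver. C1qc read 5.52 at 30 h and 5.97 at 0 h in knockdown liver, and 5.79 at 30 h and 5.25 at 0 h in control liver. For each chain the knockdown 0 h array was the highest of the 4. The 3 responses lay between -0.62 and -0.42 in the knockdown, with C1qa 1.54-fold lower, and between 0.00 and 0.54 in the control.

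Clec4f, the lectin that marks mouse Kupffer cells, read 5.92 at 30 h and 6.51 at 0 h in knockdown liver (-0.59, 1.51-fold lower), and 6.19 at 30 h and 6.09 at 0 h in control liver (0.10). The small control difference turned to -0.09 after quantile and -0.07 after cyclic loess normalization. Adgre1 read 3.41 at 30 h and 4.06 at 0 h in knockdown liver (-0.65, 1.57-fold lower), and 4.32 at 30 h and 3.90 at 0 h in control liver (0.42). Its knockdown 30 h value lay below the median level of all genes.

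Timd4 and Csf1r had responses of the same sign in both genotypes. Timd4 read 4.45 at 30 h and 4.06 at 0 h in knockdown liver (0.39), and 4.36 at 30 h and 4.16 at 0 h in control liver (0.20). Csf1r, the receptor on which macrophage survival depends, read 5.6 at 30 h and 6.04 at 0 h in knockdown liver (-0.44), and 5.54 at 30 h and 6.02 at 0 h in control liver (-0.48). Both 30 h arrays were below both 0 h arrays for Csf1r and above them for Timd4, each by less than 1.5-fold.

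As a group, the markers were mostly lower 30 h after hepatectomy in knockdown liver and mostly higher in control liver. In the knockdown, 7 of 10 were lower and 3 higher, with a median of -0.43; of the genes at or above the median level, 46.2% were higher. Clec4f, C1qa and Adgre1 were at least 1.5-fold lower, as were 9.69% of all genes, and Marco and Cd5l at least 1.5-fold higher, as were 10.4%. Clec4f was short of 1.5-fold after quantile (-0.55) and cyclic loess normalization (-0.52), and C1qa after cyclic loess (-0.55). In the control, 8 of 10 were higher, C1qa was equal and Csf1r was lower, with a median of 0.38; of the genes at or above the median level, 58.2% were higher. After quantile or cyclic loess normalization 7 were higher and 3 lower in the control, C1qa and Clec4f having turned. Marco, Cd5l and Vsig4 were at least 1.5-fold higher, as were 12.5% of all genes, and 0 of 10 were at least 1.5-fold lower (11% of all genes). Among the 9759 genes at or above the median level, to which all 10 markers belong, the median response was -0.04 in the knockdown and 0.10 in the control. Of those genes, 9.12% were at least 1.5-fold higher and 12% lower in the knockdown, and 17.5% higher and 8.05% lower in the control. At 2-fold, 1 marker was higher (2.72% of all genes) and 0 lower (2.01%) in the knockdown, and 3 were higher in the control (4.19%). At 0.32 on the log2 scale, 7 markers were lower in the knockdown (22.1% of all genes), 6 were higher (24.8%) and 1 lower (25.3%) in the control, and 7 were higher in the knockdown at 0 h (20.8%). The markers also differed among themselves: the SD over the 10 genes was 0.76 in the knockdown response (0.51 over all genes) and 0.89 in the control response (0.56 over all genes).

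**Figure D2:**
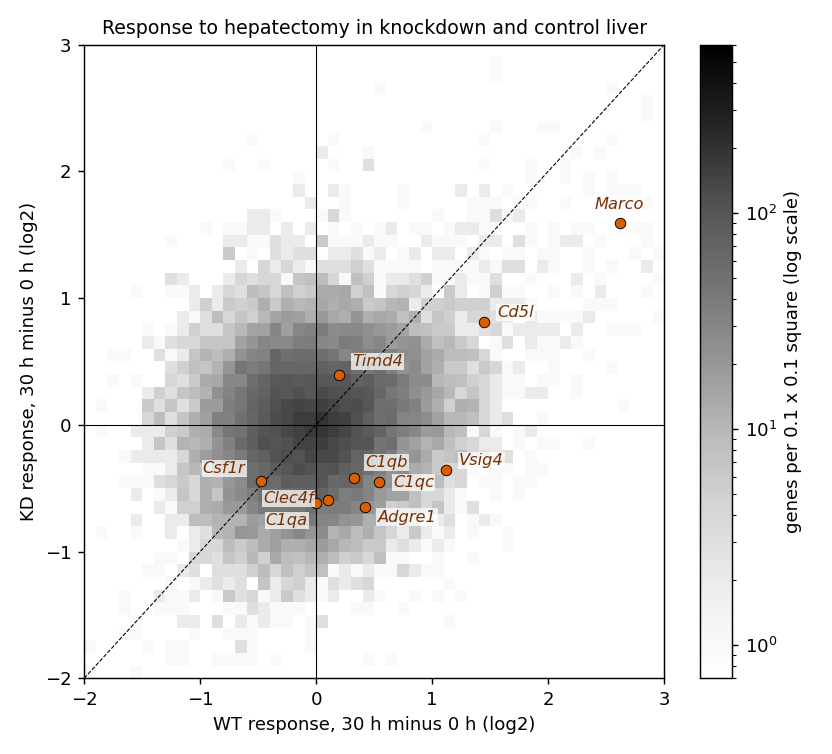
Response to hepatectomy (30 h minus 0 h, log2) in control liver (WT, horizontal axis) and knockdown liver (KD, vertical axis); orange points are the 10 markers, grey squares count all genes, 57 genes lie outside the frame, and the dashed line marks equal responses. Vsig4, C1qb, C1qc, Clec4f and Adgre1 lie to the lower right, and Marco (1.59 in KD, 2.62 in WT) lies far along both axes.

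At 0 h, most markers had higher values in the knockdown. Of the 10, 9 were higher than in the control (56.7% of the genes at or above the median level were), with a median log2 difference of 0.42 against 0.06 over the genes at or above the median level. Csf1r was among the 9 by 0.02, was at 0.00 after median centring, and turned below 0 after quantile or cyclic loess normalization. Vsig4 (0.85, 1.80-fold), C1qc (0.72, 1.65-fold) and C1qb (0.59, 1.51-fold) were at least 1.5-fold higher, as were 7.74% of all genes. C1qb was short of 1.5-fold after median centring (0.57), quantile (0.53) and cyclic loess normalization (0.51). Cd5l (0.51), Marco (0.43), Clec4f (0.42), C1qa (0.33) and Adgre1 (0.16) followed, and Timd4 was lower (-0.10). At 0 h, 0 of 10 were at least 1.5-fold lower (7.52% of all genes) and 0 of 10 at least 2-fold higher (1.45%). Among the genes at or above the median level, 7.7% were at least 1.5-fold higher and 4.49% lower.

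At 30 h the direction was turned. The knockdown value was below the control value for 8 of the 10 markers, while 37.8% of the genes at or above the median level were higher in the knockdown. The markers had a median of -0.27 against -0.11 over the genes at or above the median level. After quantile or cyclic loess normalization 6 were lower, C1qb (0.02) and Cd5l (0.05) having turned, and the marker median was -0.11. This is not to be set against the -0.11 over the genes at or above the median level, which is of the deposited values. After median centring Csf1r was at 0.00. Adgre1 (-0.91, 1.88-fold lower), Vsig4 (-0.63, 1.55-fold) and Marco (-0.60, 1.52-fold) were at least 1.5-fold lower, as were 9.19% of all genes. Vsig4 was short of that size after quantile and cyclic loess normalization (-0.50 in both), as was Marco (-0.43 after quantile, -0.54 after cyclic loess). C1qa (-0.29), C1qc (-0.27), Clec4f (-0.27), C1qb (-0.16) and Cd5l (-0.13) were lower by less. Csf1r (0.06) and Timd4 (0.09) were close to equal. At 30 h 0 of 10 were at least 1.5-fold higher, as were 10.4% of all genes. Among the genes at or above the median level, 6.31% were at least 1.5-fold higher and 12.5% lower. At 2-fold, 0 of 10 were lower (1.86% of all genes).

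**Figure D3:**
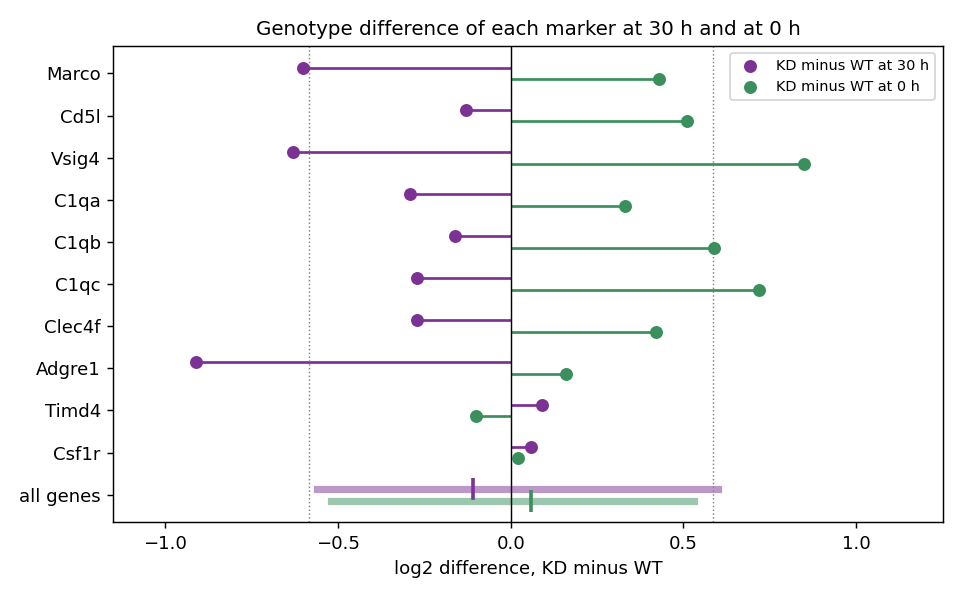
Difference between knockdown and control liver (KD minus WT, log2, horizontal axis) of each marker at 30 h (purple, upper) and at 0 h (green, lower); dotted lines mark 1.5-fold. The bottom row gives percentiles 10 to 90 of all genes as a bar (-0.56 to 0.60 at 30 h, -0.52 to 0.53 at 0 h) and the median of genes at or above the median level as a tick. Of the markers, 8 lie above 0 at 0 h and below 0 at 30 h.

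The same 8 markers were higher in the knockdown at 0 h and lower at 30 h: Marco, Vsig4, Cd5l, Clec4f, Adgre1 and the 3 C1q chains. Among all genes 26.3% had that pattern, and among those at or above the median level 35.2%. After quantile or cyclic loess normalization it held for 6 markers. By the same arithmetic, the signed response (30 h minus 0 h) was lower in the knockdown for these 8, each by at least 1.5-fold. For Marco and Cd5l both responses were above 0. For Vsig4, C1qb, C1qc, Adgre1 and Clec4f the knockdown response was below 0 and the control response above 0, a pattern of 21.7% of all genes, and for C1qa the responses were -0.62 in the knockdown and 0.00 in the control. The share with opposite signs was not counted among genes at or above the median level. Their median responses were themselves -0.04 in the knockdown and 0.10 in the control. Vsig4 had the largest difference of responses (-1.48, 2.79-fold; 1.3% of genes had a lower value), followed by Adgre1 (-1.07), Marco (-1.03), C1qc (-0.99), C1qb (-0.75), Clec4f (-0.69), Cd5l (-0.64) and C1qa (-0.62). Of all genes, 17% had a response at least 1.5-fold lower in the knockdown, and 16.9% at least 1.5-fold higher; of those at or above the median level, 22.5% were lower and 9.63% higher. At 2-fold 3 markers (Vsig4, Adgre1 and Marco) were lower, as were 5.82% of all genes. The median over the 10 markers was -0.72, against -0.18 over the genes at or above the median level. Sinusoidal endothelial markers had a median of -0.73 in the same comparison, with 10 of 13 lower and 8 of 13 at least 1.5-fold lower. The 5 comparisons share arrays, so these values are no separate evidence of one another. With quantile or cyclic loess normalization 4 markers were past 1.5-fold, and the median was -0.49 or -0.47. Csf1r (0.04) and Timd4 (0.19) differed little between the genotypes.

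Genes that work with the markers were described by list. Of 19 other Kupffer genes and identity factors, 17 were measured, and they differed in both directions: in the knockdown response 9 were higher and 8 lower (median 0.03), and in the control response 11 were higher and 6 lower (median 0.20). Ferroportin (Slc40a1), which exports iron recovered from red cells, had a response of -0.60 in the knockdown and 0.45 in the control. Vcam1 had the largest difference of responses of the list, in the other direction (1.12 in the knockdown, 0.03 in the control). Its mean was below the median level. Il18bp was higher at 30 h by 0.95 in the knockdown and 0.60 in the control. The difference of responses was lower in the knockdown for 10 of the 17 and higher for 7. Id1 was higher at 30 h by 0.95 in the knockdown and 1.43 in the control. Spic, which drives the red pulp and iron-recycling macrophage programme, read 2.02 in knockdown and 3.52 in control liver at 30 h, and 2.41 in knockdown and 3.69 in control liver at 0 h, all below the median level of genes.

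Among 21 measured macrophage markers of any tissue the median response was -0.13 in the knockdown and 0.11 in the control. Cd14, the lipopolysaccharide co-receptor, had the largest response of the list in both genotypes: it read 6.26 at 30 h and 3.49 at 0 h in knockdown liver, and 4.91 at 30 h and 3.37 at 0 h in control liver (responses of 2.77 in the knockdown and 1.54 in the control). Cybb, the NADPH oxidase subunit of phagocytes, had responses of -1.08 in the knockdown and 0.32 in the control. Lysozyme (Lyz2) had a response of -0.73 in the knockdown and -0.02 in the control. At 0 h the adaptor Tyrobp (0.84), cathepsin S (Ctss, 0.83) and the IgG receptor Fcgr3 (0.71) were higher in the knockdown, while Cd52 (-0.92) was lower and the list median was 0.06.

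For the signals that keep macrophages alive, 12 of 14 listed genes of the CSF1 receptor axis were measured, and their medians lay between -0.14 and 0.07 in the 4 comparisons of arrays. The ligand Il34 had a response of 0.99 in the knockdown and -0.24 in the control. Csf1, the other ligand, had responses of -0.31 in the knockdown and 0.09 in the control (named after its values were seen). Of the classical complement genes and C1q partners, 17 of 20 were measured. Their median response was -0.19 in the knockdown, with 10 lower, and 0.24 in the control, with 12 higher. At 0 h 15 of 17 were higher in the knockdown, with a median of 0.23, led by the anaphylatoxin receptor C5ar1 (1.07). The C1 protease C1s1 had responses of -0.28 in the knockdown and 0.26 in the control. Over the list the difference of responses had a median of -0.20, with 13 of 17 lower.

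All 19 listed genes of apoptotic cell uptake were measured, with a median response of 0.19 in the knockdown and 0.01 in the control. Gas6, the bridge between dying cells and the TAM receptors, was higher at 30 h in both (1.32 in the knockdown, 1.34 in the control). Its receptor Axl had responses of -0.79 in the knockdown and 0.74 in the control. Others went the opposite way: Cd300lf had 0.56 in the knockdown and -0.86 in the control, and Itgb3 had 1.11 and -0.18. The difference of responses was lower in the knockdown for 13 of the 19 and higher for 6. Of 12 other scavenger receptors 11 were measured, with a median response of 0.22 in the knockdown and 0.06 in the control. Mrc1, the mannose receptor, had responses of -0.81 in the knockdown and -0.45 in the control. Msr1, a class A receptor like Marco, had responses of -0.08 in the knockdown and 0.39 in the control. Cd209f had the largest difference of responses of the list, in the other direction (0.63 in the knockdown, -0.49 in the control). That difference was lower in the knockdown for 7 of the 11 and higher for 4. The 7 measured LXR targets, chosen because Cd5l is a known target of LXR, had a median response of -0.15 in the knockdown and -0.08 in the control, and 0 of 7 differed by 1.5-fold in any comparison. Of all genes, 7.52% to 17% were past that size in a given direction, depending on the comparison.

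Markers of other sinusoidal cells had medians of the same sign as the Kupffer markers in the knockdown response and in both genotype differences. At 30 h the median was -0.17 for endothelial markers (7 of 13 lower) and -0.04 for stellate cell markers (6 of 12 lower). Over the genes at or above the median level it was -0.11. Sinusoidal endothelial markers were lower at 30 h in the knockdown for 11 of 13 genes (median -0.49), led by Clec4g (-1.55) and Dnase1l3 (-1.19), against 7 of 13 in the control (median -0.07). At 0 h 12 of 13 were higher in the knockdown (median 0.29), led by Gpr182 (1.09). Their median level was 5.12 at 30 h and 5.34 at 0 h in knockdown liver, and 5.12 at 30 h and 5.01 at 0 h in control liver, and none was at 0. Stellate cell markers had a median of -0.35 in the knockdown response (9 of 12 lower) and 0.01 in the control response, and 0.25 at 0 h (10 of 12 higher). Their median difference of responses was -0.32, with 9 of 12 lower. The part of these cells in the Kupffer result was not tested. Hepatocyte markers had medians of 0.07 in the knockdown response, 0.10 in the control response, 0.19 at 0 h and -0.02 at 30 h. Their difference of responses had a median of -0.24, with 9 of 13 lower.

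Of 14 measured markers of recruited monocytes, 6 had means at or above the median level of genes, as had 9759 of all 19505 genes. Their median response was 0.04 in the knockdown and 0.24 in the control. Of 12 neutrophil markers, 2 had means at or above the median level, and the list had a median response of 0.20 in the knockdown and 0.19 in the control. The median response of lymphocyte markers was 0.11 in the knockdown and -0.10 in the control, and that of dendritic cell markers was -0.16 in both. Cholangiocyte markers had a median of 0.30 in the knockdown and 0.09 in the control.

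**Figure D4:**
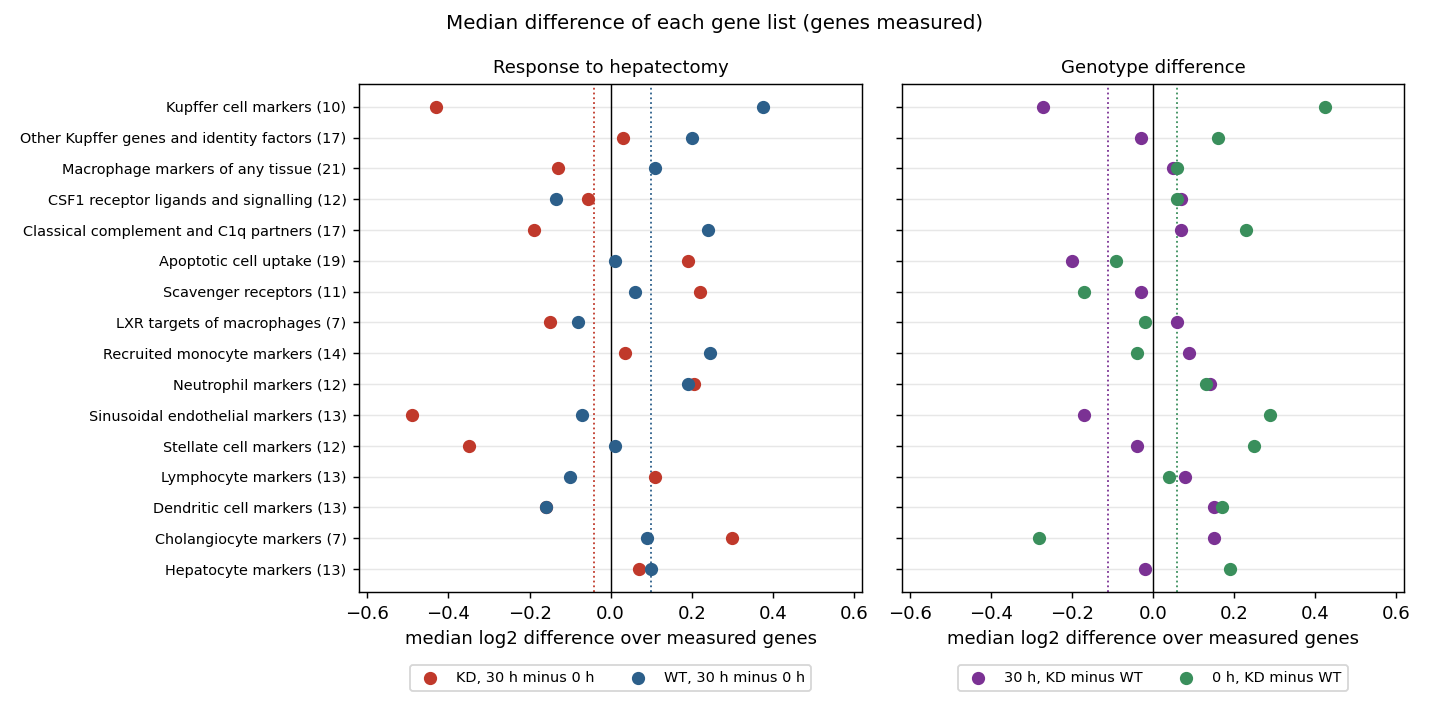
Median log2 difference of each gene list, with the number of genes measured in brackets; the left panel gives the response to hepatectomy in knockdown (red) and control (blue) liver, the right panel the knockdown minus control difference at 30 h (purple) and 0 h (green). Dotted lines mark the same medians over genes at or above the median level; where points coincide, as for dendritic cell markers on the left, one covers the other. Kupffer markers lie at -0.43 and 0.38 on the left and at -0.27 and 0.42 on the right.

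The genes nearest in pattern to the median marker were named as a description. Centred on each gene's mean, the median marker stood at -0.12 in knockdown liver at 30 h, 0.24 in knockdown liver at 0 h, 0.13 in control liver at 30 h and -0.18 in control liver at 0 h. Among 9463 other genes at or above the median level, the 5 nearest to it by Euclidean distance over the 4 arrays were Dynlrb1, Zfp750, Slc2a2, Fbxw5 and Micos13, at distances of 0.037 to 0.047 (log2). Slc2a2, the glucose transporter of hepatocytes, read 8.64 at 30 h and 8.96 at 0 h in knockdown liver, and 8.89 at 30 h and 8.57 at 0 h in control liver.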

How the data were processed

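Liver RNA of 4 groups was measured on 4 whole-transcript arrays, grouped by title. The authors deposited log2 values for probe sets. RMA and Affymetrix Expression Console are named by the submitters' processing notes; versions and genome build: not given in the sources used here. RMA equalises the arrays, so a change shared by all genes is not seen. Of 22206 probe sets 19572 had 1 gene symbol, 0 had several, and 2634 without a name were left out. Where a gene had several probe sets (55 of 19505 genes), the brightest by mean was taken. No detection call was used. Precision is limited by having 4 arrays.

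The 5 comparisons were the 2 responses, the 2 genotype differences and the difference of responses. With 1 array per group no test was run; genes were counted at 1.5-fold over all genes, with no filter. Named genes were all markers, Mcu, up to 4 genes of each of 15 other lists per comparison by absolute difference, and the 5 nearest patterns. Members and lists were chosen with earlier results of these data known. Alternatives were median centring, quantile and cyclic loess normalization (limma 3.58.1, R 4.3.3), the mean of probe sets, the mean over markers, a filter at the median gene level, and thresholds of 0.32 (log2) and 2-fold. A value with no replicates was called moved when it shifted by 0.1 or more on the log2 scale. The counting was tested on simulated data. Python 3.11.15, numpy 2.4.6, pandas 2.3.3 and matplotlib 3.10.9 were used. Promoters are from RefSeq, GRCm38.p6, since that build is the table's own, and the only coordinates printed are those of the promoter windows. The genotype field of the knockdown arrays, which differs from the treatment protocol, is not reported here.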

Additional observations from a re-analysis of the deposited data

Results flagged for a closer look

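For 5 markers the knockdown array moved one way after hepatectomy and the control array the other, in the direction shown by 21.7% of all genes. The share among genes at or above the median level was not counted. After quantile or cyclic loess normalization 4 markers had the pattern. The difference of responses, knockdown minus control, was -1.48 for Vsig4, -1.07 for Adgre1, -0.99 for C1qc, -0.75 for C1qb and -0.69 for Clec4f; the control response of Clec4f changed sign with quantile and cyclic loess normalization. For C1qa (-0.62), Cd5l (-0.64) and Marco (-1.03) the knockdown minus control difference was above 0 at 0 h and below 0 at 30 h, as it also was for the other 5. For Timd4 that difference was 0.09 at 30 h and -0.10 at 0 h, a gap of 0.19 the other way. None of these differences was tested, since each uses 1 array per group.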

How the results depend on the processing

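All 5 medians over the markers kept their sign under every alternative run. Quantile normalization moved the median of the control response to 0.27, of the genotype difference at 30 h to -0.11 and of the difference of responses to -0.49, and cyclic loess moved the last 2 to -0.11 and -0.47. The mean over markers was -0.07 in the knockdown response and 0.63 in the control response, where Marco and Cd5l weigh more. All 10 markers passed the filter at the median gene level, so it changed nothing. Quantile and cyclic loess normalization each gave 4 markers at least 1.5-fold lower in the difference of responses, against 8 as deposited, and 1 against 3 at 30 h, and put 1 marker (Csf1r, -0.63 and -0.62) at least 1.5-fold lower in the control response, where there had been 0. Cyclic loess gave 1 lower in the knockdown response and quantile normalization 2, against 3. Median centring, quantile and cyclic loess normalization each gave 2 higher at 0 h, against 3. At 0.32 on the log2 scale, 6 markers were higher and 1 lower in the control response, 7 lower in the knockdown response and 7 higher at 0 h. At 2-fold, 1 was higher and 0 lower in the knockdown response, 0 higher at 0 h, 0 lower at 30 h and 3 lower in the difference of responses. Of 200 single marker values recomputed, 156 moved by less than 0.1, 44 by 0.1 or more, and the largest move was 0.27; the 8 changes of sign were quantile and cyclic loess values of Clec4f in the control response, Csf1r at 0 h, and C1qb and Cd5l at 30 h. The cause of these shifts was not tested. Array scaling moved the median of all genes by at most 0.06. Shares of genes, and medians over the genes at or above the median level, are given for the deposited values only. No paired analysis was possible because each group has 1 array, and no array could be left out. Without detection calls, how far dim values lie above background is unknown. Examples are Adgre1 in knockdown liver at 30 h and Marco in control liver at 0 h.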
